A study of Mus musculus with 6 samples.

Results

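A set of 9 genes of B cells and plasma cells was followed in epididymal white adipose tissue (eWAT) of cachectic and control mice. They were taken by name from the deposited count table, Cd79a, Cd79b, Ms4a1, Cd22, Pax5, Ighm, Ighd, Igkc and Jchain, and all 9 were found among its 54532 genes. All 9 also passed the filter on low counts that 16003 genes passed.

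B cells carry an antibody in their membrane as the B cell receptor, and plasma cells release the same antibody into the fluid around them. An antibody is built from heavy chains (Ighm for the IgM class, Ighd for IgD) and light chains (Igkc for kappa), each with a constant part and a variable part, and only the variable part meets the antigen. Visceral fat holds B cells between the adipocytes and in fat-associated lymphoid clusters, where B-1 cells are known for making natural IgM without previous infection.

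The series held 6 samples of eWAT, the fat pad beside the epididymis, from male C57BL/6 mice obtained at an age of 6 to 10 weeks. In the cachexia group (n = 3) the mice had been inoculated under the skin with LLC (Lewis lung carcinoma) cells, a mouse lung cancer line, and mice with marked loss of body weight were counted as cachectic. The control group (n = 3) carried no tumor, and the labels name no other allele or agent in either group. Tissue was analyzed on day 21, so the comparison asks how B lineage transcripts of the fat pad differ at this stage between cachectic mice with a tumor and mice without one. The tumor and the wasting cannot be told apart in this design. The whole pad was sequenced, so the values are for a mixture of cells. The total count was between 14928766 and 18855546 per sample, and every cachectic library was smaller than every control library. The adipocyte marker Adipoq was at 1899 ± 249.5 CPM in control and 2762 ± 1288 CPM in cachectic mice (SD, n = 3 each), and the 8 epididymis markers summed to at most 5.07 CPM in any library, with 1 of the 8, Adam7, at 3.06 CPM in control replicate 1 and at most 0.99 CPM elsewhere. CPM is a count scaled to the TMM-normalized size of its library.

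Ighm, the constant region of the IgM heavy chain, was lower in cachectic mice by a wide margin. It was at 408, 517 and 473 CPM in control replicates 1, 2 and 3, and at 125, 45.3 and 6.75 CPM in cachexia replicates 1, 2 and 3. The highest cachectic mouse was below the lowest control mouse, and the 3 cachectic mice were spread from 26.8% to 1.45% of the control mean, while the controls lay close together (466 ± 54.9 CPM, SD, n = 3). The log2 fold change of cachectic over control mice was −2.98 ± 0.83 (SE; 95% interval −4.89 to −1.07), with an adjusted p-value of 0.0441 in edgeR's quasi-likelihood test with Benjamini-Hochberg adjustment over all tested genes. The call was close to the threshold of 0.05. It was lost when control replicate 1 (adjusted p = 0.0691, edgeR), control replicate 2 (0.101), control replicate 3 (0.108) or cachexia replicate 2 (0.117) was left out, with a log2 fold change between −4.16 and −2.45 over these and the other left-out samples. In a bulk sample, fewer B cells and less RNA per B cell cannot be told apart.

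Ighm lies on the minus strand of chromosome 12 (chr12:113418558-113422730 in the coordinates of the deposited table, which are those of GRCm38), in a locus where Ighd follows it. One primary transcript gives both forms of IgM. In the secreted form translation runs past the last shared exon into a short tail, and in the membrane form splicing joins 2 further exons that encode the membrane anchor. The 2 ends are shown because the deposited counts sum them: a count for Ighm does not say whether receptor or secreted antibody was lost. Both are coding sequence from GENCODE M21 (GRCm38), 5′ to 3′, and begin with the same 30 bases in lower case. Capitals mark the bases that belong to 1 form.
Ighm secreted: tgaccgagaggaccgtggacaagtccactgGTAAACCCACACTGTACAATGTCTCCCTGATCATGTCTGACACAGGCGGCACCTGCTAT
Ighm membrane: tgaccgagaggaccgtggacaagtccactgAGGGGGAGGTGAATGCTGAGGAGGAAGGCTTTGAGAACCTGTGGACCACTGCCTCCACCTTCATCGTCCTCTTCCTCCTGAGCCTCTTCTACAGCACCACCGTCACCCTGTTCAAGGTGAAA
The secreted tail has 59 coding bases at chr12:113420870-113420928, and the membrane part has 122, with its exons at chr12:113418953-113419068 and chr12:113418829-113418834. All of them lie behind 1305 coding bases that the 2 forms share.

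**Figure D1:**
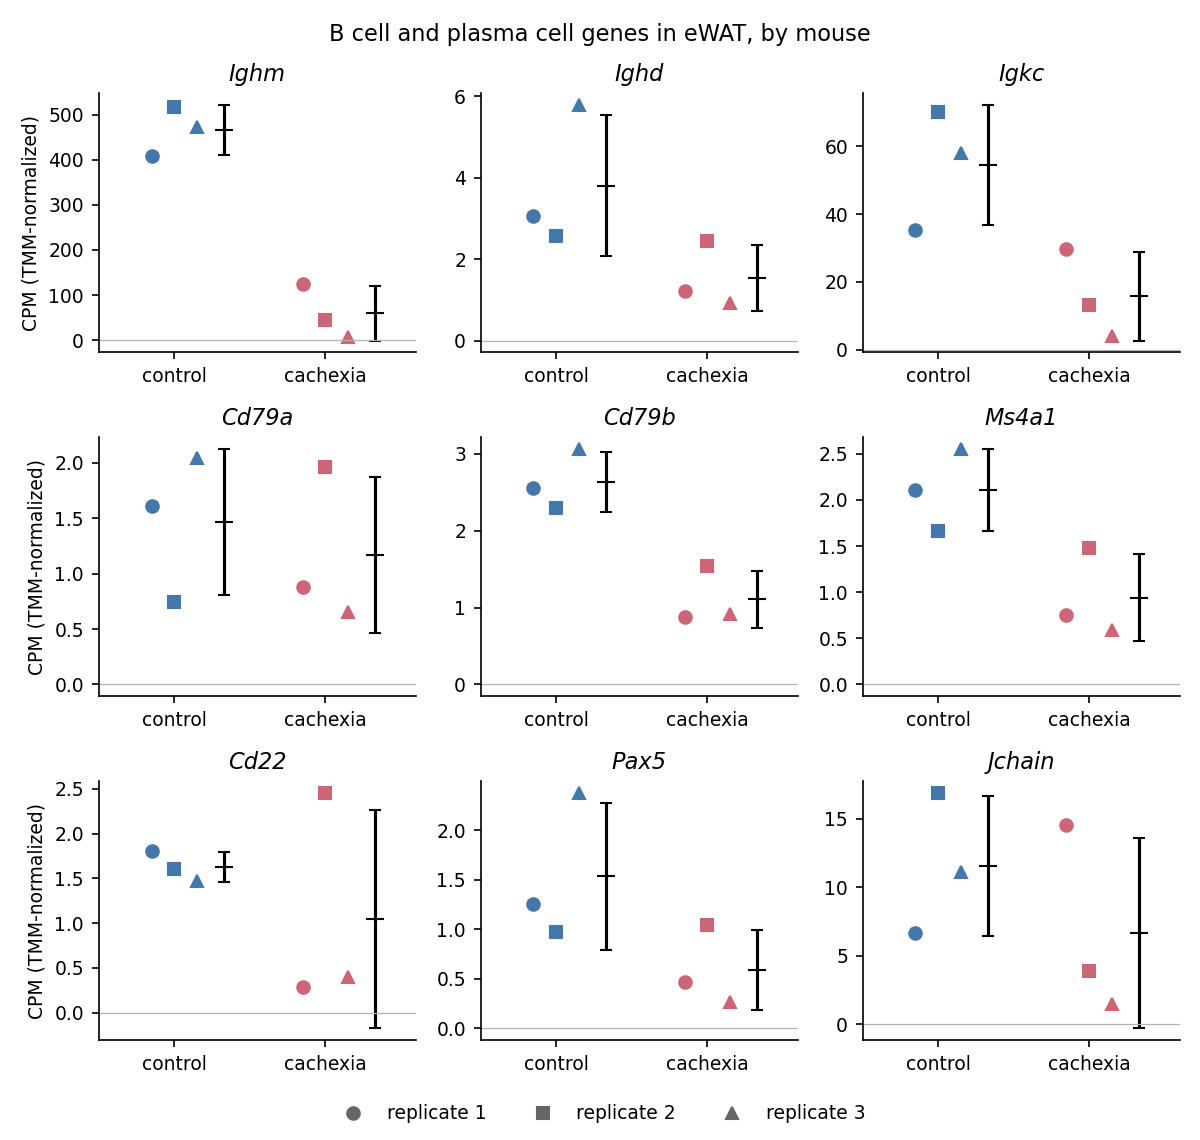
Level of each of the 9 genes in each mouse, in TMM-normalized CPM on linear axes that differ between panels, with control mice in blue, cachectic mice in red and the replicate number as the marker shape. Horizontal ticks and bars give the mean ± SD (n = 3). Ighm was between 408 and 517 CPM in control mice and between 6.75 and 125 CPM in cachectic mice.

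Of the 9 genes, 1 (Ighm) passed the test, and it was lower. Of all tested genes, 17.6% passed, 8.63% lower and 9% higher in cachexia, so 1 call in 9 genes is near what the whole table gives. Most of the 9 were scarce, and among the 4485 genes with a mean under 5 CPM 7.16% were called lower. The log2 fold change was below 0 for 9 of 9 genes, against 50.2% of all tested genes, with a median of −1.24 against −0.003 over all tested genes. Cd22 and Pax5 passed the filter on low counts through the controls alone. The 9 of 9 and the median are therefore a description and are not used as support. In 5 of the 9 (Ighm, Igkc, Ighd, Cd79b and Ms4a1) every cachectic mouse was below every control mouse, which held for 20.1% of all tested genes, and in 0 of the 9 was every cachectic mouse above every control mouse, which held for 20.4%.

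Igkc, the constant region of the kappa light chain that most mouse antibodies carry, was at 35.4, 70.0 and 58.0 CPM in control mice and at 29.8, 13.3 and 4.13 CPM in cachectic mice (chr6:70726435-70726966, plus strand). The groups did not overlap, although cachexia replicate 1 came close to control replicate 1. Its log2 fold change was −1.79 ± 0.60 (SE; 95% interval −3.16 to −0.41), which missed the threshold (adjusted p = 0.0759, edgeR with Benjamini-Hochberg adjustment) and passed it without cachexia replicate 1 (−2.64, adjusted p = 0.0278).

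Ighd encodes the constant region of IgD, which mature naive B cells carry beside IgM and which is spliced from the same primary transcript as Ighm (chr12:113406604-113416324, minus strand). It was at 3.06, 2.58 and 5.78 CPM in control mice and at 1.22, 2.46 and 0.92 CPM in cachectic mice. The groups did not overlap, but cachexia replicate 2 was just under control replicate 2, and the log2 fold change of −1.31 ± 0.49 (SE) had an adjusted p-value of 0.106 (edgeR). Ighd did not follow Ighm within the cachectic mice. For every 100 Ighm counts there were 0.750, 0.498 and 1.22 Ighd counts in control mice and 0.979, 5.43 and 13.6 in cachectic mice. Cachexia replicate 1 lay among the controls and the other two above them (two-sided exact permutation test, p = 0.20, where 3 against 3 mice cannot go below 0.10).

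Jchain encodes the joining chain that links secreted IgM and IgA into polymers and is strongly expressed in plasma cells (chr5:88519809-88527891, minus strand). It was at 6.67, 16.9 and 11.1 CPM in control mice and at 14.6, 3.93 and 1.51 CPM in cachectic mice, so cachexia replicate 1 was among the controls and the other two were below them. The log2 fold change was −0.79 ± 0.72 (SE), and its 95% interval of −2.45 to 0.88 covers no change as well as a large loss (adjusted p = 0.482, edgeR).

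Cd79a and Cd79b encode the signaling pair that sits beside the membrane antibody in every B cell receptor. Cd79b (chr11:106311341-106314762, minus strand) was at 2.56, 2.29 and 3.06 CPM in control mice and at 0.87, 1.54 and 0.92 CPM in cachectic mice. The groups were apart, and the log2 fold change of −1.24 ± 0.37 (SE) was just outside the threshold (adjusted p = 0.0560, edgeR). Cd79a (chr7:24897381-24902197, plus strand) was at 1.61, 0.75 and 2.04 CPM in control mice and at 0.87, 1.97 and 0.66 CPM in cachectic mice. Its groups overlapped, with cachexia replicate 2 beside the highest control, and the log2 fold change was −0.33 ± 0.56 (SE; adjusted p = 0.719, edgeR). Both were scarce, and the partners of 1 receptor did not give the same picture at this depth. The difference between them was not tested.

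Ms4a1 (chr19:11249675-11266241, minus strand) encodes CD20, a membrane protein of B cells that is lost in plasma cells. It was at 2.11, 1.66 and 2.55 CPM in control mice and at 0.76, 1.47 and 0.59 CPM in cachectic mice, without overlap, and its log2 fold change of −1.16 ± 0.45 (SE) did not pass (adjusted p = 0.112, edgeR). Cd22 (chr7:30865402-30880342, minus strand) encodes a sialic acid-binding receptor that restrains B cell receptor signals. It was at 1.81, 1.605 and 1.47 CPM in control mice and at 0.29, 2.46 and 0.39 CPM in cachectic mice, so cachexia replicate 2 was above all controls and the other two were below them. Its log2 fold change was −0.63 ± 0.75 (SE; adjusted p = 0.592, edgeR), and −2.23 without cachexia replicate 2. Cd22 passed the filter on low counts through the controls alone, and cachexia replicates 1 and 3 had 5 and 6 counts. The fold change without cachexia replicate 2 is therefore given no test here.

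Pax5 (chr4:44524757-44710487, minus strand) encodes the transcription factor that holds B cell identity and is shut off in plasma cells. It was at 1.25, 0.97 and 2.38 CPM in control mice and at 0.47, 1.04 and 0.26 CPM in cachectic mice. The groups overlapped by cachexia replicate 2 alone, and the log2 fold change was −1.36 ± 0.60 (SE; adjusted p = 0.149, edgeR). Pax5, too, passed the filter on low counts through the controls alone. Exons of Cd22 and Pax5 share bases with genes of the opposite strand, and the sources used here do not say whether strand was used in counting. Reads of these pairs may therefore not be separated.

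**Figure D2:**
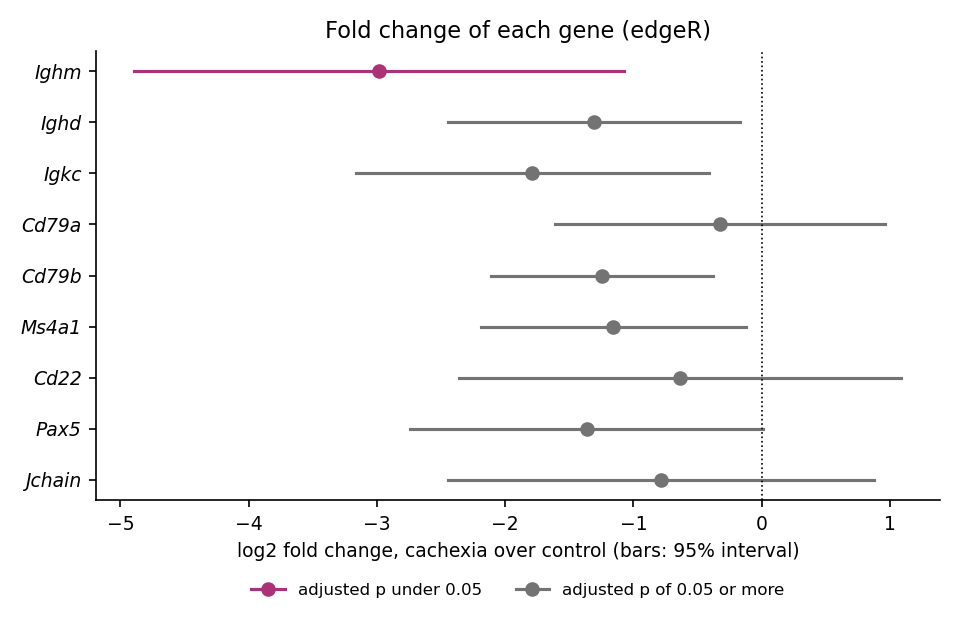
Log2 fold change of cachectic over control mice for each of the 9 genes from edgeR's quasi-likelihood test, with bars for the 95% interval and a dotted line at 0. Ighm, in purple, had an adjusted p-value under 0.05, while the intervals of Cd79a, Cd22, Pax5 and Jchain reach above 0.

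The order of the cachectic mice was not the same in all 9 genes. Cachexia replicate 1 was the highest of the 3 in 3 genes, Ighm, Igkc and Jchain. Cachexia replicate 2 was the highest in the other 6, the antibody chain Ighd, Cd79a, Cd79b, Ms4a1, Cd22 and Pax5. Cachexia replicate 3 was the highest in 0 genes. In percent of the control mean, Igkc was at 54.7, 24.4 and 7.58 in cachexia replicates 1, 2 and 3, and Ms4a1 was at 36.0, 70.0 and 28.0. Jchain was at 126% in cachexia replicate 1 and at 13.0% in cachexia replicate 3, while Cd22 was at 17.9% and 151% in cachexia replicates 1 and 2. The split was noticed in the values and was not tested.

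**Figure D3:**
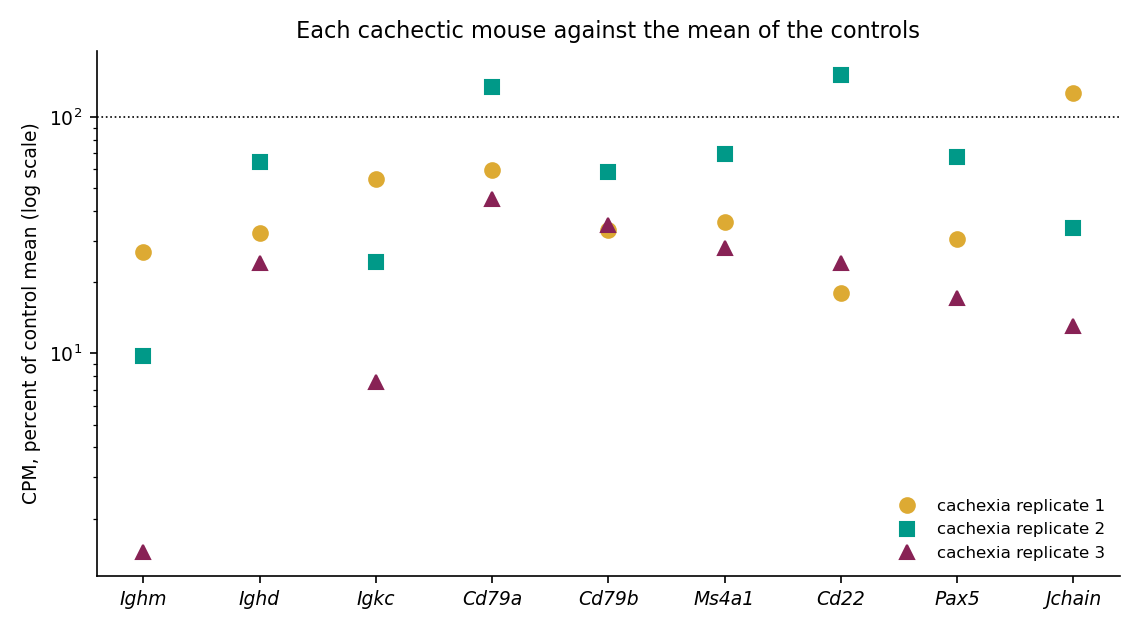
Level of each of the 9 genes in each cachectic mouse in percent of the mean of the 3 control mice (log axis), with the dotted line at the control mean. Cachexia replicate 1 (yellow circles) is the highest for Ighm, Igkc and Jchain, and cachexia replicate 2 (green squares) for the other 6 genes.

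Levels of different genes were compared per length, as FPKM. Ighm stood far above the rest in control fat at 244 ± 28.2 FPKM, followed by Igkc at 101 ± 32.4 FPKM (SD, n = 3 each). Jchain followed at 4.53 FPKM, Ighd at 1.98, Cd79b at 1.82 and Cd79a at 0.992, and Ms4a1, Cd22 and Pax5 were at 0.336, 0.319 and 0.171 FPKM. Between neighbors in this order the control mice overlapped for Jchain and Ighd, for Ighd and Cd79b and for Ms4a1 and Cd22, and were apart for the other pairs. Ighm was 3.25, 2.09 and 2.30 times Igkc in FPKM in control mice and 1.18, 0.962 and 0.461 times Igkc in cachectic mice. The IgM heavy chain was lower relative to the kappa chain in every cachectic mouse than in every control mouse, a difference that was noticed in the values and not tested.

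Ighm and all other immunoglobulin rows were summed, constant and variable parts of all 429 rows included. The sum was 499.5, 649 and 583.5 CPM in control mice and 200.1, 79.2 and 17.5 CPM in cachectic mice. On the log2 scale the groups differed by −3.14 (two-sided exact permutation test, p = 0.10, the smallest that 3 against 3 mice can give). Ighm made up 79.7% to 81.7% of these counts in control mice, and 62.5%, 57.1% and 38.6% in cachexia replicates 1, 2 and 3. The 6 of the 9 genes that are no immunoglobulin genes summed to 16.0, 24.2 and 22.6 CPM in control mice and to 17.8, 12.4 and 4.33 CPM in cachectic mice, with overlap (difference of −1.06 on the log2 scale, exact permutation test, p = 0.20). Without 1 mouse the difference of the immunoglobulin sum lay between −3.95 and −2.19, and that of the other 6 genes between −1.49 and −0.47.

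Light chains come as kappa or lambda, and a B cell uses 1 of the 2. Lambda constant regions (Iglc1, Iglc2 and Iglc3) had 83, 30 and 61 counts in control mice and 154, 37 and 7 in cachectic mice, so cachexia replicate 1 held the most of all. Kappa made up 89.5%, 97.6% and 94.4% of the light chain constant counts in control mice. In cachectic mice it made up 76.8% (95% Wilson interval 73.5% to 79.9%), 85.4% (80.5% to 89.2%) and 90.0% (80.8% to 95.1%), intervals that cover counting error only. The kappa share differed by −9.75 percentage points (exact permutation test, p = 0.20). Iglc1 (log2 fold change 0.33 ± 0.99, SE) and Iglc2 (0.31 ± 1.13) had adjusted p-values of 0.848 and 0.872 in edgeR, and turned negative in other analyses. Copies of the lambda constant regions are alike enough that their reads may be split between them.

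The classes that follow IgM after class switching were sparse. The 4 IgG constant regions, Ighg1, Ighg2b, Ighg2c and Ighg3, summed to 342, 130 and 18 counts in control mice and to 3, 2 and 1 counts in cachectic mice. Most of the control counts came from Ighg2b, with 220, 89 and 7, against 2, 2 and 1 in cachectic mice. Every cachectic mouse was below every control mouse, and the controls themselves differed widely. None of the 4 passed the filter on low counts, so they were not tested in the main analysis. Of the constant regions outside the 9 genes 3 were tested and 0 called, and without the filter 4 were called. Igha, the IgA heavy chain of mucosal antibody, was at 3.36 ± 1.01 CPM in control and 1.83 ± 0.73 CPM in cachectic mice (SD, n = 3 each), with a log2 fold change of −0.87 ± 0.43 (SE; adjusted p = 0.197, edgeR). Iglc3 had 4, 7 and 8 counts in control mice and 1, 17 and 5 in cachectic mice. Ighe, the IgE heavy chain, had no count in any library, which allows up to 3 counts or 0.151 to 0.197 CPM per library.

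**Figure D4:**
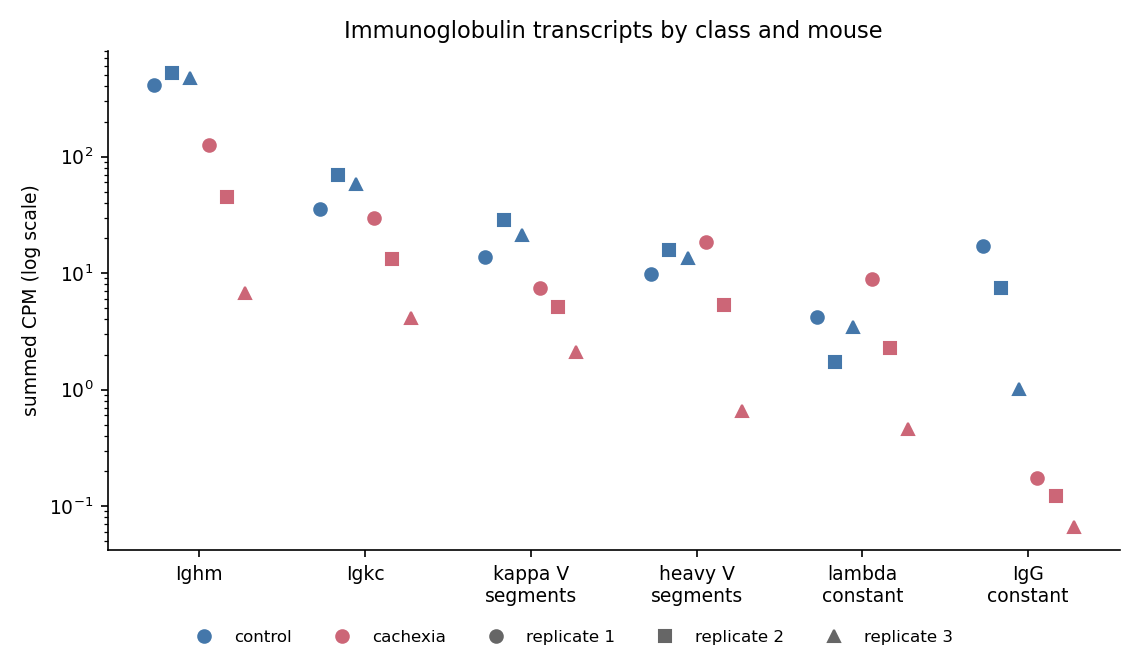
Summed CPM of Ighm, Igkc, the variable segments of kappa and heavy chains and the constant regions of lambda chains and IgG in each mouse (log axis), with control mice in blue, cachectic mice in red and the replicate number as the marker shape. The 3 cachectic mice lie below the 3 controls for Ighm, Igkc, kappa variable segments and IgG, and cachexia replicate 1 lies above all controls for heavy chain variable segments and lambda.

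Variable segments are joined anew in each B cell clone, so their mixture reflects the clones in a tissue. The count table listed 348 of them, of which 152 had any count and 6 passed the filter. The filter asks for counts in as many libraries as a group holds, so a segment high in all controls passed it and one high in a single cachectic mouse, such as Ighv1-26, did not, and the calls among the 6 are not read as a direction of the segments. Igkv14-126 had 17, 153 and 85 counts in control mice and 14, 2 and 3 in cachectic mice. The controls alone were enough to carry it past the filter, so its fold change is given no test here. Igkv1-117 had 14, 12 and 14 counts in control mice and 1, 3 and 0 in cachectic mice. It passed the filter through the controls alone, so its fold change is given no test here.

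Igkv14-126 was the segment with the most counts in the table, and together with Ighv11-2 it forms an antibody of B-1a cells that binds phosphatidylcholine. Igkv4-91 with Ighv12-3 forms the other well known antibody of that kind. Igkv4-91 had 19, 46 and 47 counts in control mice and 11, 0 and 0 in cachectic mice. For Igkv4-91, too, the controls alone were enough to pass the filter, so its fold change is given no test here. Ighv11-2 had 0, 42 and 41 counts in control mice and 5, 7 and 0 in cachectic mice, and Ighv12-3 had 7, 4 and 12 against 2, 0 and 0. Neither heavy segment passed the filter, and both were named for their partners after their values were seen. For all 4 segments the controls held most of the counts. Control replicate 1 was below the other controls for Igkv14-126, Igkv4-91 and Ighv11-2, and Ighv11-2 had no count there. For Igkv14-126, control replicate 1 was close to cachexia replicate 1 (0.853 against 0.816 CPM). Bulk counts do not pair a heavy with a light segment in a cell.

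Igkv14-126, Igkv4-91 and Ighv11-2, the segments of these antibodies with the most counts, are shown by the last 120 coding bases of their exon, 5′ to 3′, from GENCODE M21 (GRCm38). Capitals mark the last 30 bases, next to which recombination joins the J or D segment.
Igkv14-126: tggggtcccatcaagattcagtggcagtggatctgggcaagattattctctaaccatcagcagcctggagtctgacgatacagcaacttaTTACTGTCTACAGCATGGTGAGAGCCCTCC
Igkv4-91: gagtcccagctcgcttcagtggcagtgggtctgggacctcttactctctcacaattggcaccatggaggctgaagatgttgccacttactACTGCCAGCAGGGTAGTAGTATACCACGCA
Ighv11-2: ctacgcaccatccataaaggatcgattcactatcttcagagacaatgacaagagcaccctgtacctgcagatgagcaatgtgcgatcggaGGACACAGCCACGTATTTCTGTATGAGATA
They lie at chr6:67896523-67896642 (plus strand), chr6:68768555-68768674 (minus) and chr12:114048241-114048360 (minus).

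Single segments took a large part of the heavy chain counts in some mice. In cachexia replicate 1, Ighv1-26 had 137 of 320 heavy segment counts (42.8%, 95% Wilson interval 37.5% to 48.3%), against 4, 7 and 3 counts in control mice and 4 and 0 in the other cachectic mice. Iglv3, a lambda segment, had 93 counts in the same mouse, and 49, 3 and 1 in control mice and 2 and 0 in the other cachectic mice. In control replicate 1 it was Ighv1-74, with 66 of 196 counts (33.7%, 27.4% to 40.5%), a segment named for its share after the values were seen. Iglv1 had 26, 8 and 18 counts in control mice and 26, 42 and 0 in cachectic mice. Heavy segments together summed to 18.7 CPM in cachexia replicate 1, above the controls at 9.83 to 15.8 CPM, although Ighm there was at 26.8% of the control mean. For every 100 Ighm counts there were 6.86 to 8.74 counts of variable segments in control mice and 26.6, 29.0 and 40.8 in cachexia replicates 1, 2 and 3. The groups of ratios were apart, and they were not tested. Segments of a family are close copies, and the share of their reads that was counted was not tested.

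Of the other genes of B cell identity, 26 of 30 were tested, and 7 were lower and 0 higher in cachexia, with a median log2 fold change of −1.23. Of all tested genes 8.63% were called lower. In 13 of the 26 the groups were apart with cachexia lower and in 1, Bach2 (3.89 CPM in control and 6.48 CPM in cachectic mice), with cachexia higher, against 20.1% and 20.4% of all tested genes. Among the 13, Spib, Ly6d, Bcl11a, Siglecg and H2-Ob passed the filter on low counts through the controls alone. The 13 and the median are therefore a description and are not used as support. Cd74, the invariant chain of MHC class II, was at 789 ± 145 CPM in control and 231 ± 109 CPM in cachectic mice (SD, n = 3 each; adjusted p = 0.0136, edgeR). Ciita, the master regulator of MHC class II genes, was at 11.5 ± 0.69 and 3.15 ± 1.88 CPM (0.0242). Both are also expressed by macrophages and dendritic cells. Ralgps2, an exchange factor for Ral GTPases, was at 14.9 ± 6.84 and 5.68 ± 1.25 CPM (0.0302). Siglecg, an inhibitory receptor known for restraining B-1 cells, was at 2.32 ± 0.12 and 0.486 ± 0.434 CPM. It is among the 7, but the controls alone were enough to carry it past the filter on low counts, so its call is not used as support. The others called were Tnfrsf13b, H2-Ob and Cd180, and the call of H2-Ob is likewise not used as support. The count of 7 fell to 0 without control replicate 3, to 2 without control replicate 1 or 2 and to 4 without cachexia replicate 1, 2 or 3, and over all tested genes it fell from 2821 to between 828 and 2339.

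Of 24 genes of B cell receptor signaling 3 were lower and 0 higher, with a median log2 fold change of −0.36, and the count of 3 is near the 8.63% of all tested genes called lower. The 3 were the GTPase Rac2 (27.5 ± 2.97 CPM in control, 18.6 ± 1.28 CPM in cachectic mice; adjusted p = 0.0320, edgeR), the adaptor Sh3bp2 (13.0 ± 1.57 and 7.77 ± 0.95 CPM; 0.0362) and the phospholipase Plcg2 (14.3 ± 1.25 and 8.82 ± 1.45 CPM; 0.0447). All 3 also act in other blood cells, and 0 to 3 of the 24 genes were called when 1 mouse was left out.

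Of 16 tested genes of the plasma cell program 0 were lower and 2 higher, with a median log2 fold change of 0.13, and the count of 2 is near the 9% of all tested genes called higher. The 2 were Irf4, a transcription factor of plasma cells that adipocytes also use, at 12.8 ± 4.64 CPM in control and 260.5 ± 101 CPM in cachectic mice (SD, n = 3 each; adjusted p = 0.00134, edgeR), and Cd38, an ectoenzyme of many cell types, at 53.4 ± 5.37 and 111 ± 14.5 CPM (0.00478). Sdc1, the syndecan used to sort plasma cells and also made by epithelial cells, was at 26.6 ± 2.34 and 30.5 ± 10.04 CPM (0.602).

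Ligands that attract B cells or keep them alive gave 0 calls in 8 tested genes. Tnfsf13b, the survival factor BAFF, was at 6.15 CPM in control and 5.26 CPM in cachectic mice (adjusted p = 0.621, edgeR). Cxcl13, the chemokine that draws B cells into follicles and B-1 cells into body cavities, was at 2.41, 9.46 and 2.72 CPM in control mice and at 5.72, 329.7 and 10.7 CPM in cachectic mice. The high mouse was cachexia replicate 2, and over the group Cxcl13 did not pass (log2 fold change 4.58 ± 1.54, SE; adjusted p = 0.0777, edgeR). Both ligands were named after their values were seen. Of the 8 B cell development genes 2 were tested and 0 called, and Rag1 had counts at 0.050 CPM in control replicate 1 and none elsewhere.

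All 4 tested genes of the list for germinal centers and proliferation were lower, against 8.63% of all tested genes, with a median log2 fold change of −1.71. They were Bcl6 (100.4 ± 27.5 CPM in control, 24.5 ± 16.5 CPM in cachectic mice; adjusted p = 0.0197, edgeR), Mki67 (17.8 ± 5.42 and 4.42 ± 2.34 CPM; 0.0162), Top2a (11.1 ± 3.64 and 4.18 ± 1.497 CPM; 0.0371) and S1pr2 (15.1 ± 1.02 and 8.002 ± 2.35 CPM; 0.0376). Mki67 and Top2a mark dividing cells of any type, and Bcl6 is also made by adipocytes. Which cells made the S1pr2 transcripts was not tested. With any 1 mouse left out 0 to 2 of the 4 were called.

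Most markers of T and NK cells, macrophages and dendritic cells did not pass the test, and neither did 8 of the 9 genes. The T and NK cell markers were shifted down much as the 9 genes were. Their median log2 fold change was −1.20 against −1.24, with 12 of 13 tested markers below 0. With 1 mouse left out 0 to 2 markers of all leukocytes and 0 to 1 of T and NK cells were called. Among markers of all leukocytes 3 of 5 were lower and 0 higher, against 8.63% and 9% of all tested genes. Their median log2 fold change was −0.58, with a summed level of 273 to 311 CPM in control and 189 to 198 CPM in cachectic mice. Ptprc, which encodes CD45, was at 71.7 ± 12.6 CPM in control and 41.5 ± 0.78 CPM in cachectic mice (SD, n = 3 each; log2 fold change −0.79 ± 0.15, SE; adjusted p = 0.0136, edgeR). Of 13 tested markers of T and NK cells 2 were lower, Trac (adjusted p = 0.0284, edgeR) and Trbc2 (0.0462), with a median of −1.20 and a summed level of 23.7 to 36.2 against 11.9 to 21.4 CPM, but Cd3e was at 1.07 ± 0.31 and 1.14 ± 0.28 CPM (0.907). Trac and Trbc2 passed the filter on low counts through the controls alone, so their calls are not used as support. Of 10 macrophage markers 1 was lower and 2 higher (median −0.09, 1579 to 1978 against 1323 to 2055 CPM), and Adgre1, which encodes F4/80, was at 48.0 ± 7.64 and 36.5 ± 16.4 CPM (0.398). Of 7 tested dendritic cell markers 1, Xcr1, was lower and 0 higher (median −0.58, 94.3 to 98.6 against 87.1 to 117.9 CPM), and Siglech was at 2.88 ± 0.90 and 1.15 ± 1.499 CPM (0.354). Xcr1 had 4, 5 and 0 counts in cachectic mice and passed the filter through the controls alone, so its call is not used as support.

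Markers of blood and vessels were followed as well, beside 8.63% of all tested genes called lower and 9% called higher. Of 9 tested neutrophil markers 8 were higher (median 4.95, 32.4 to 48.9 CPM in control and 251 to 713 CPM in cachectic mice), S100a8 among them (adjusted p = 0.00276, edgeR). Of 6 tested erythroid markers 6 were higher (median 2.72, 252 to 451 against 1334 to 2856 CPM), with Hbb-bs at 169.6 ± 65.7 and 1311 ± 457 CPM (0.00356). At least Slc4a1 among the erythroid and Retnlg, S100a9 and Cxcr2 among the neutrophil markers passed the filter on low counts through the cachectic mice alone. The counts of calls and the medians of both lists are therefore not used as support. Of 8 endothelial markers 3 were higher (median 0.74, 1564 to 1650 against 2236 to 3361 CPM), with Pecam1 at 355 ± 10.1 and 793 ± 251 CPM (0.0170), and 0 were called without control replicate 2 or 3. Of 10 adipocyte markers 1 was lower (Lep) and 1 higher (Cidec), with a median of 0.01 and a summed level of 28764 to 36966 against 30246 to 45904 CPM. Blood also carries B cells, and the part of all these shifts in the levels of the 9 genes was not tested. Glycam1, which marks the vessels through which lymphocytes enter lymph nodes, was at most 0.131 CPM in any library. Madcam1 was at 0.07 ± 0.03 CPM in control and 5.12 ± 3.51 CPM in cachectic mice. It was the 1 of 4 tested lymph node stroma markers that was called (median 0.58, 460 to 567 against 438 to 641 CPM). Madcam1 passed the filter through the cachectic mice alone, so its call is not used as support.

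**Figure D5:**
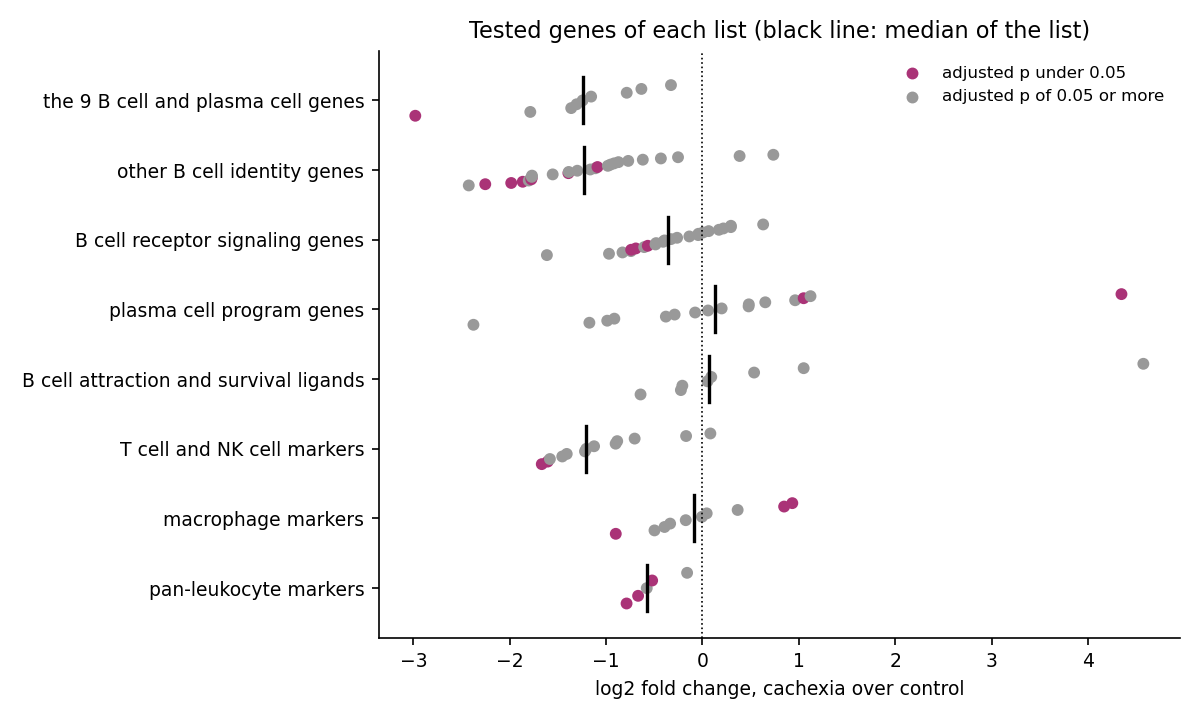
Log2 fold change of cachectic over control mice for each tested gene of 8 lists, with purple points for an adjusted p-value under 0.05 (edgeR), a black line at the median of each list and a dotted line at 0. The medians are −1.24 for the 9 B cell and plasma cell genes, −1.23 for the other B cell identity genes and −1.20 for the T and NK cell markers. The median is 0.13 for the plasma cell program genes, whose far right point is Irf4.

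Among protein-coding genes outside all lists, Acp2, Tubg1, Mtss1, Ppp1r35 and Man1a2 had the patterns most like the mean of the standardized levels of the 9 genes over the 6 mice. Pearson's r was between 0.987 and 0.990, a description over 6 libraries in 2 groups. All 5 were lower in every cachectic mouse than in every control mouse, by small amounts, with log2 fold changes between −0.54 (Mtss1) and −0.21 (Ppp1r35), and none passed the test in edgeR (adjusted p between 0.0790 and 0.448). The mean they were chosen by was already at 0.39 or more in every control mouse and at 0.04 or less in every cachectic mouse. Their separation of the groups therefore follows from the choice. RefSeq promoters (GRCm38.p6, 250 bases before to 50 after the start) were given for 4 of the 9 genes, Pax5, Jchain, Cd79a and Cd22. On both strands, the octamer ATGCAAAT stood in 0 of the 4 and in 1.74% of all 32851 promoters, and the core motif of EBF stood in 1, that of Cd22, and in 0.904% of all. These are matches of letters in a window and say nothing of a factor.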

How the data were processed

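RNA from eWAT of 3 cachectic and 3 control mice was made into libraries with the NEBNext Ultra kit and sequenced as paired-end reads. The authors aligned the reads with Hisat2 and deposited the raw counts per gene from featureCounts (version 1.5.0-p3). The authors also deposited FPKM values, made from the count, the gene length and the sequencing depth, which were used here to compare levels between genes. The fold changes and p-values of the authors' table of differential genes (DESeq2 1.16.1) were not used. The processing notes name mm9. The deposited coordinates are those of GRCm38, since GENCODE M21 holds 99.9% of the gene identifiers, 98.3% of them at the same place. Whether strand was used is not given in the sources used here, nor is the treatment of reads that map to several places.

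The main test was the quasi-likelihood F test of edgeR 4.0.16 (R 4.3.3) on TMM-normalized counts without covariates. FilterByExpr left 16003 genes, over which p-values were adjusted by Benjamini-Hochberg, and an adjusted p under 0.05 was called. Total counts of 14928766 to 18855546 and a biological coefficient of variation of 0.264 set the precision. A standard error is the log2 fold change divided by the square root of F. Single values per mouse were compared with two-sided exact permutation tests. Samples were grouped by their labels, and the labels do not say that the mice of a group were housed or processed apart. No 2 libraries had near-identical counts. Alternatives were RLE factors, plain totals, no filter, at least 10 counts in every sample, DESeq2 1.42.0, limma-voom (limma 3.58.1), limma on log2(FPKM + 1) and log2(FPKM + 0.1), leaving out the immunoglobulin rows, a replicate block, and leaving out each sample. The scripts were tested on simulated data, in which 24.2% of DESeq2's calls, 7.5% of edgeR's and 6.33% of limma-voom's were false.

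The 9 genes and all gene lists were chosen with earlier results of these data known. Named are the 9 genes, the other constant regions, up to 4 genes per list and direction with the smallest p among those called, 1 defining marker of each cell type, the 5 genes of the most similar pattern and the 5 variable segments with the most counts. Ighv11-2, Ighv12-3, Ighv1-74, Tnfrsf13b, H2-Ob, Cd180, Bach2, Tnfsf13b, Cxcl13 and Rag1 are outside this rule and were named after their values were seen. A few listed genes are not reported here.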

Additional observations from a re-analysis of the deposited data

How the results depend on the processing

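With 3 mice a group and most of the 9 genes under 3 CPM, single calls depend on the setting. All 9 genes kept a log2 fold change below 0 under every alternative listed above that gave a value, with Cd79a as near to 0 as −0.019, and Ighm was called in 11 of 15. A further setting, tried after the values were seen, left out cachexia replicate 3 and control replicate 1 together and turned Cd79a above 0. It was not kept, because it picked samples by their values. Of the 9 genes 2 were called without the filter, with at least 10 counts in every sample, with DESeq2 and with either FPKM pseudocount, and 3 with limma-voom. Leaving out 1 mouse gave 0 to 2.

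The labels do not say whether replicate numbers pair the mice. Deviations from the group means correlated by −0.003, −0.011 and 0.008 between mice of the same number. With means taken over 3 mice these values cannot decide it. With the replicate block 1 of the 9 genes was called (Ighm, −3.69, adjusted p = 0.0461, edgeR), with 3 other B cell identity genes, 0 B cell receptor signaling genes, 2 germinal center and proliferation genes, 0 T and NK cell, 1 macrophage and 1 adipocyte markers, 0 variable segments and 1881 of all genes, and Iglc2 was at −0.82.

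Without the filter 4 constant regions, 6 variable segments, 1 signaling gene, 2 ligands and 0 T and NK cell markers were called. Plain library totals called 1 signaling gene, 1 ligand, 2 germinal center and proliferation genes, 1 T and NK cell marker and 2 dendritic cell markers. DESeq2 called 7 signaling genes, 1 ligand, 2 dendritic cell and 6 endothelial markers. With at least 10 counts in every sample 0 T and NK cell, 3 neutrophil and 0 lymph node stroma markers were called. Limma-voom called 1 T and NK cell marker, and put Iglc1, Iglc2 and Iglv1 at −0.74, −1.14 and −0.74. On log2(FPKM + 0.1) 2 germinal center and proliferation genes were called and Iglc1, Iglc2 and Iglv1 were at −0.68, −1.11 and −0.72. On log2(FPKM + 1) 4 plasma cell program genes were called and Iglc1 and Iglc2 were at −0.027 and −0.47.

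When 1 mouse was left out, the calls ranged from 0 to 2 for other constant regions, 0 to 4 for other B cell identity genes, 0 to 3 for signaling genes, 2 to 3 for plasma cell program genes, 0 to 1 for ligands, 0 to 2 for germinal center and proliferation genes, 0 to 1 for T and NK cell, 0 to 3 for macrophage, 0 to 2 for dendritic cell, 0 to 1 for adipocyte, 0 to 6 for endothelial and 0 to 2 for pan-leukocyte markers, 0 to 4 for variable segments and 828 to 2339 for all genes. The log2 fold change crossed 0 for Iglc1 (−0.79 to 0.90), Iglc2 (−2.72 to 0.87), Iglv1 (−0.27 to 1.13), Cd3e (−0.087 to 0.32) and Sdc1 (−0.035 to 0.43). The cause was not tested. Where a group was left with 2 mice, the spread came from all libraries.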
